A study of Homo sapiens with 24 samples.

Results

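Keratins are the intermediate filament proteins of epithelial cells, and their RNA was followed here in HCT116 cells treated with inhibitors of DNA methyltransferase 1. Members were all probe sets whose single gene symbol begins with KRT and a digit, leaving out keratin-associated proteins and symbols of pseudogenes. This gave 57 of the 54675 probe sets, for 45 symbols: 44 keratin genes and the antisense RNA KRT10-AS1, which meets the rule by its symbol. Of these, 52 probe sets of 43 symbols had at least 2 arrays with a log2 value of 5 or more and were tested. KRT14, a basal keratin of stratified epithelia, reached 5 on 0 arrays and KRT25, an inner root sheath keratin, on 1 array, so neither was tested. Keratins with no probe set of a single symbol in the probe table used, among them KRT6A and KRT17, were not among the members analysed.

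HCT116 is an established human colorectal cancer line. Cells were treated for 72 h with decitabine (DAC) at 5 µM or 120 nM, with the compound G669071 at a higher or a lower dose, with the compound G668684 at 7 µM or 150 nM, with azacytidine (Aza) at 1500 nM or 150 nM, with the compound G669043 at 1500 nM or 150 nM, or with the vehicle dimethyl sulfoxide (DMSO). Each of the 10 treated groups had 2 arrays and DMSO had 4, 24 Affymetrix HG-U133 Plus 2.0 arrays in all. For G669071 the sample titles gave 63 µM and 6 µM and the source names 120 nM and 6 nM, so its groups are called higher and lower. DAC and Aza are analogues of cytidine that, once in DNA, hold methyltransferases there, while the coded compounds are prodrugs whose structures are not taken from their names. All groups share 1 cell line, and the labels do not say whether replicates were separate cultures, so p-values cover the spread among arrays, part of which may be technical.

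Keratins assemble as pairs of a type I chain, encoded mostly in a cluster on chromosome 17, and a type II chain, encoded in a cluster on chromosome 12. Simple epithelia such as the gut lining make KRT8 and KRT18, often with KRT19 and KRT7, and the intestinal epithelium adds KRT20 as its cells mature. Stratified epithelia such as the epidermis, cornea and oral mucosa make other pairs by layer and site, and hair and its sheath make sets of their own. Pathologists use the balance of KRT7 and KRT20 to name the origin of carcinomas, and many tissue-restricted keratins are known to be silent outside their tissue.

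The epithelial markers of the line were measured beside markers of other cells. In DMSO cells the epithelial adhesion gene EPCAM averaged 12.93 ± 0.29 and the adherens junction gene CDH1 10.3 ± 0.19 (log2 value, SD, n = 4 arrays). The other epithelial and colon markers read averaged 10.48 ± 0.13 (CLDN7), 7.40 ± 0.08 (VIL1), 6.95 ± 0.13 (CDH17) and 7.41 ± 0.22 (CEACAM5). Of 8 markers of other cells, the leukocyte gene PTPRC averaged 4.39 ± 0.11 and the fibroblast collagen COL3A1 4.80 ± 0.13, while COL1A1, another fibroblast collagen, averaged 9.98 ± 0.25, the T cell gene CD3E 8.15 ± 0.07 and the endothelial gene PECAM1 8.05 ± 0.20. Levels of different probe sets cannot be set against each other, so these values do not show whether the cells were pure. The summed level of the 8 ranged from 10.78 to 10.97 (log2) over treated arrays and from 10.70 to 11.02 over DMSO arrays. That of the 6 epithelial markers ranged from 13.00 to 13.64 over treated arrays and from 13.25 to 13.68 over DMSO arrays. The deposited values carry no detection calls, so whether a dim probe set lies above background is not known, and a fold against such a level has no settled size. This bears on dim keratins such as KRT12 in DMSO, not on bright ones such as KRT18 and KRT19. In bulk RNA, more cells with a keratin and more of its RNA per cell cannot be told apart.

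Across the 43 tested symbols, more keratins rose than fell in every comparison with DMSO that called any. A call means that limma gave a p under 0.05 after Benjamini-Hochberg adjustment over all 18055 genes, and the share of all genes called in the same direction is given beside each count. At DAC 5 µM, 14 keratin symbols rose, against a background of 18%, and at DAC 120 nM 12 rose, against 12.5%. With G669071, 15 rose at the higher dose, against 15.8%, and 12 at the lower dose, against 8.68%. With G668684, 15 rose at 7 µM, against 17.5%, and 16 at 150 nM, against 10.7%. Aza raised 11 at 1500 nM, against 8.13%, and 4 at 150 nM, against 1.03%. G669043 raised 7 at 1500 nM, against 5.88%, and 0 at 150 nM, where 0.709% of all genes rose; by limma's unadjusted p under 0.05, 4 keratin symbols were higher and 4 lower in that last group.

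The falls came down to 1 gene. KRT222 was the only keratin that fell in any comparison with DMSO, in 8 of the 10 treated groups, where 14.2%, 9.9%, 13.7%, 6.91%, 14.7%, 10.4%, 9.18% and 3.25% of all genes fell at DAC 5 µM, DAC 120 nM, G669071 higher and lower, G668684 7 µM and 150 nM, Aza 1500 nM and G669043 1500 nM. The background falls at Aza 150 nM and G669043 150 nM were 0.46% and 0.161%, and no keratin fell there. All 10 comparisons share the DMSO arrays. The median log2 fold change of the 43 symbols ranged from 0.00 at G669043 150 nM to 0.15 at Aza 1500 nM, beside medians of all genes between -0.04 and 0.03.

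Counting both directions, 15 symbols were called at DAC 5 µM beside 32.2% of all genes, 13 at DAC 120 nM beside 22.4%, 16 at G669071 higher beside 29.5% and 13 at G669071 lower beside 15.6%. With G668684, 16 were called at 7 µM beside 32.2% and 17 at 150 nM beside 21.1%. With Aza, 12 were called at 1500 nM beside 17.3% and 4 at 150 nM beside 1.49%, and with G669043 8 at 1500 nM beside 9.12% and 0 at 150 nM beside 0.87%. At DAC 5 µM and G668684 7 µM these counts of the 43 symbols stood near the share of all genes and are no result about keratins. Between doses the share of all genes called was 14.7% for DAC, 9.35% for G669071, 11.6% for G668684, 5.79% for Aza and 3.87% for G669043, and between G669043 and Aza it was 2.13% at 1500 nM and 0.0665% at 150 nM.

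**Figure D1:**
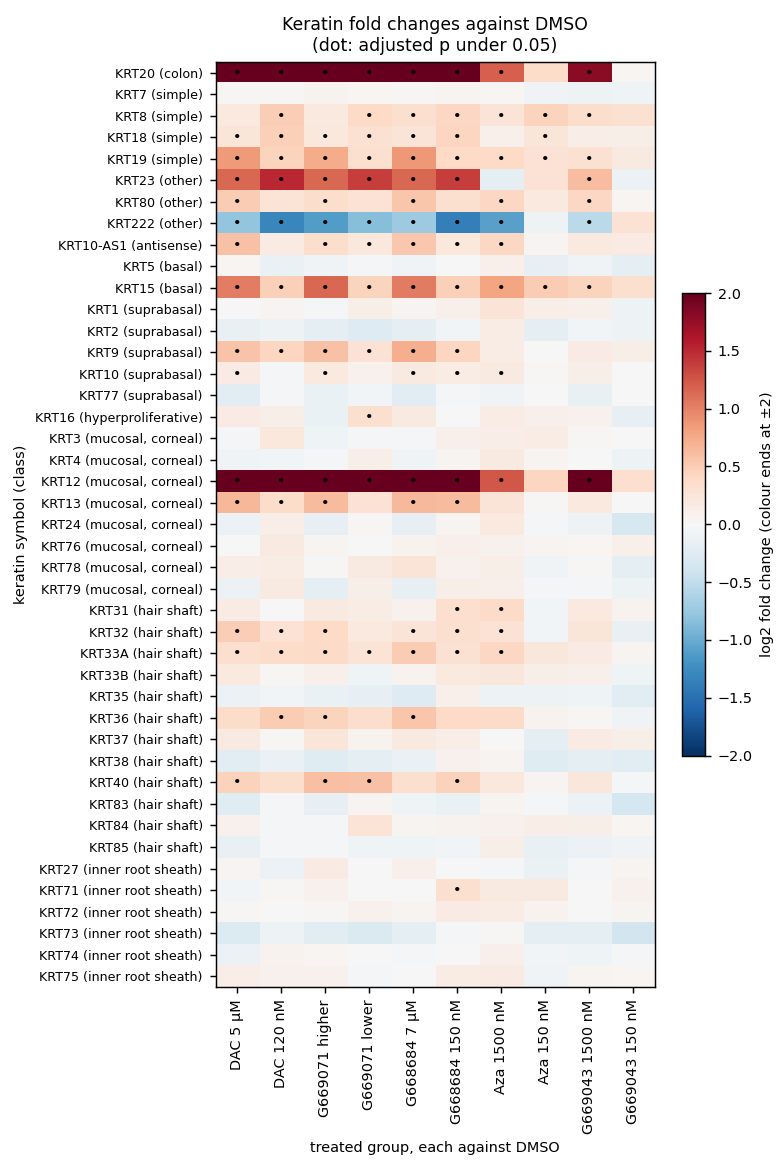
Log2 fold change of each tested keratin symbol (rows, with class) in each treated group against DMSO (columns); a dot marks an adjusted p under 0.05 and colours end at ±2. KRT20 and KRT12 carry the darkest cells, up to 3.68 and 3.17, KRT222 is the blue row with dots, and most squamous and hair rows are pale.

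KRT20, the intestinal keratin made by maturing enterocytes and goblet cells, showed the highest fold changes of the family at the higher dose of DAC, G669071 and G668684. Its log2 values were 8.95 and 8.81 at DAC 5 µM, 8.71 and 9.04 at DAC 120 nM, 9.55 and 9.56 at G669071 higher, and 8.38 and 8.38 at G669071 lower. They were 8.97 and 9.07 at G668684 7 µM and 8.63 and 8.65 at G668684 150 nM. The DMSO arrays read 5.97, 5.75, 5.85 and 5.91. All 12 of these treated arrays lay far above all 4 DMSO arrays, and G669071 at the higher dose was highest. The log2 fold changes were 3.01, 3.005, 3.68, 2.51, 3.15 and 2.77 in that order, each ± 0.10 (limma SE), and the highest, at G669071 higher, is a 12.9-fold difference (adjusted p = 6.7e-16).

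The Aza groups showed smaller and dose-dependent KRT20 values. At Aza 1500 nM the arrays read 7.13 and 7.01, and at Aza 150 nM 6.21 and 6.26. At G669043 1500 nM they read 7.70 and 7.65, and at G669043 150 nM 5.71 and 6.11. Only the last group overlapped the DMSO arrays. KRT20 rose by 1.20 ± 0.10 at Aza 1500 nM (adjusted p = 8.4e-08) and by 1.80 ± 0.10 at G669043 1500 nM (adjusted p = 2.4e-10), while the differences of 0.37 at Aza 150 nM (adjusted p = 0.082) and 0.04 at G669043 150 nM did not pass. The 8 calls of KRT20 were kept under each of the 15 alternatives run.

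KRT12, the keratin of the corneal epithelium, rose in the same 8 groups as KRT20. Its log2 values were 7.31 and 7.29 at DAC 5 µM, 7.75 and 8.17 at DAC 120 nM, 8.04 and 7.97 at G669071 higher, and 7.75 and 7.74 at G669071 lower. They were 7.43 and 7.61 at G668684 7 µM and 7.61 and 8.01 at G668684 150 nM. The DMSO arrays read 4.72, 4.49, 5.32 and 4.79, so 1 of 4 reached the filter value of 5, and KRT12 was tested only because treated arrays did. No array of these groups came within the DMSO range. The log2 fold changes were 2.47, 3.13, 3.17, 2.91, 2.69 and 2.98 in that order, each ± 0.17 (adjusted p at most 8.1e-10). A gene kept in this way had to differ from DMSO, whose level is not known to be above background, so the values describe KRT12 and their size is not settled.

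KRT12 was also called at the 1500 nM doses of Aza and G669043. The arrays read 6.17 and 5.96 at Aza 1500 nM and 6.86 and 6.86 at G669043 1500 nM, above all DMSO arrays, with log2 fold changes of 1.23 ± 0.17 (adjusted p = 4.1e-05) and 2.03 ± 0.17 (adjusted p = 1.2e-07). They read 5.12 and 5.40 at Aza 150 nM and 5.01 and 5.33 at G669043 150 nM, which overlapped DMSO replicate 3. The differences there, 0.43 and 0.34, were not called with all DMSO arrays; without DMSO replicate 3 they were 0.59 (adjusted p = 0.035) and 0.50 (adjusted p = 0.046) and passed. The 8 calls of KRT12 were kept under each of the 15 alternatives run.

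KRT12 and KRT20 are neighbours on chromosome 17 and rose in the same 8 groups, so their promoters are shown, with that of KRT10-AS1, the next gene before KRT12 in the cluster and a smaller riser, as a contrast in CG content. The sequences are from RefSeq (GRCh38.p14), 300 bases from 250 before to 50 after the annotated start, in the direction of transcription, with CG pairs, the sites that DNA methyltransferases modify, in capitals.
KRT12 (chr17:40867174-40867473, minus strand): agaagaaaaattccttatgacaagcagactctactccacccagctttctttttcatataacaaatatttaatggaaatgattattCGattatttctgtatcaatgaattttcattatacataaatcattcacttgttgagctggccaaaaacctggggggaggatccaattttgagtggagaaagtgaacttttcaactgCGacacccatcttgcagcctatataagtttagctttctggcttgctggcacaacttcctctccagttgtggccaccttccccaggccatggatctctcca
KRT20 (chr17:40885193-40885492, minus strand): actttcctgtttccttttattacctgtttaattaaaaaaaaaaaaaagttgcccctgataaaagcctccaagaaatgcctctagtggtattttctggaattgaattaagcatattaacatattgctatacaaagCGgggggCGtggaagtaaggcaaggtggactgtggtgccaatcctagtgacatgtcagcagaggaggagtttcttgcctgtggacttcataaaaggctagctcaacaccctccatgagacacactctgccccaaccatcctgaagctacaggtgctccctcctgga
KRT10-AS1 (chr17:40818895-40819194, plus strand): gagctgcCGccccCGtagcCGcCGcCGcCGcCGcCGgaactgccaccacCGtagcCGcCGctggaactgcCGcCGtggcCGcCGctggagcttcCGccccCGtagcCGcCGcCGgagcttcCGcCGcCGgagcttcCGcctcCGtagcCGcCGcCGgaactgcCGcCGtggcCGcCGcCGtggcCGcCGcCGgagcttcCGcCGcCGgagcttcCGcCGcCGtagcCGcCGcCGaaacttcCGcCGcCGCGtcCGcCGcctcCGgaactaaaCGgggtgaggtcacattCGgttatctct
The KRT12 and KRT20 windows each held 2 CG pairs, with G and C making up 40.0% and 44.0% of bases, while the KRT10-AS1 window held 54 CG pairs and 76.7% G and C.

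Few CG pairs were found in most of the keratin windows that could be read. The promoter table matched 30 of the 45 symbols with 35 entries, KRT23, KRT15, KRT19, KRT13, KRT18, KRT80, KRT7 and KRT222 not among them, and the median window of these held 2 CG pairs, beside 14 over all 35116 promoters. Without the antisense RNA, the 33 keratin windows held from 0 to 8. The letters TATAAA, on either strand, were in 16 of these 33 windows and in 11.5% of all promoters. GGGCGG, on either strand, was in 6 of 33 and in 45.0% of all promoters, and neither motif was in the printed KRT12 or KRT20 window. These are descriptions of sequence; methylation was not measured in these samples.

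KRT23, a type I keratin known as a gene induced by histone deacetylase inhibitors in pancreatic cancer cells, lies beside KRT20 and also rose. The only KRT23 probe set can, by its suffix, bind several transcripts. Its log2 values were 8.26 and 8.41 at DAC 5 µM, 8.70 and 8.71 at DAC 120 nM, 8.29 and 8.40 at G669071 higher, and 8.57 and 8.57 at G669071 lower. They were 8.26 and 8.42 at G668684 7 µM and 8.51 and 8.63 at G668684 150 nM. The DMSO arrays read 6.91, 7.15, 7.32 and 7.38. All 12 treated arrays lay above DMSO, and the smaller dose of each of these 3 compounds had the higher KRT23 mean. Its fold changes on the log2 scale were 1.14, 1.52, 1.16, 1.38, 1.15 and 1.38 in that order, each ± 0.11 (adjusted p at most 5.9e-08).

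KRT23 parted from KRT20 and KRT12 with Aza. The arrays read 7.16 and 6.87 at Aza 1500 nM, within or below the DMSO range, and 7.42 and 7.53 at Aza 150 nM, just above it. The log2 differences were -0.18 ± 0.11 (adjusted p = 0.32) and 0.28 ± 0.11 (adjusted p = 0.27). Against DMSO replicates 3 and 4 alone the first was called as a fall, -0.34, and against DMSO replicates 1 and 2 alone the second was called as a rise, 0.45. At G669043 1500 nM the arrays read 7.78 and 7.84 and KRT23 rose by 0.62 ± 0.11 (adjusted p = 0.00079), whereas at 150 nM they read 7.11 and 7.04 and the difference was -0.11 ± 0.11 (adjusted p = 0.55).

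**Figure D2:**
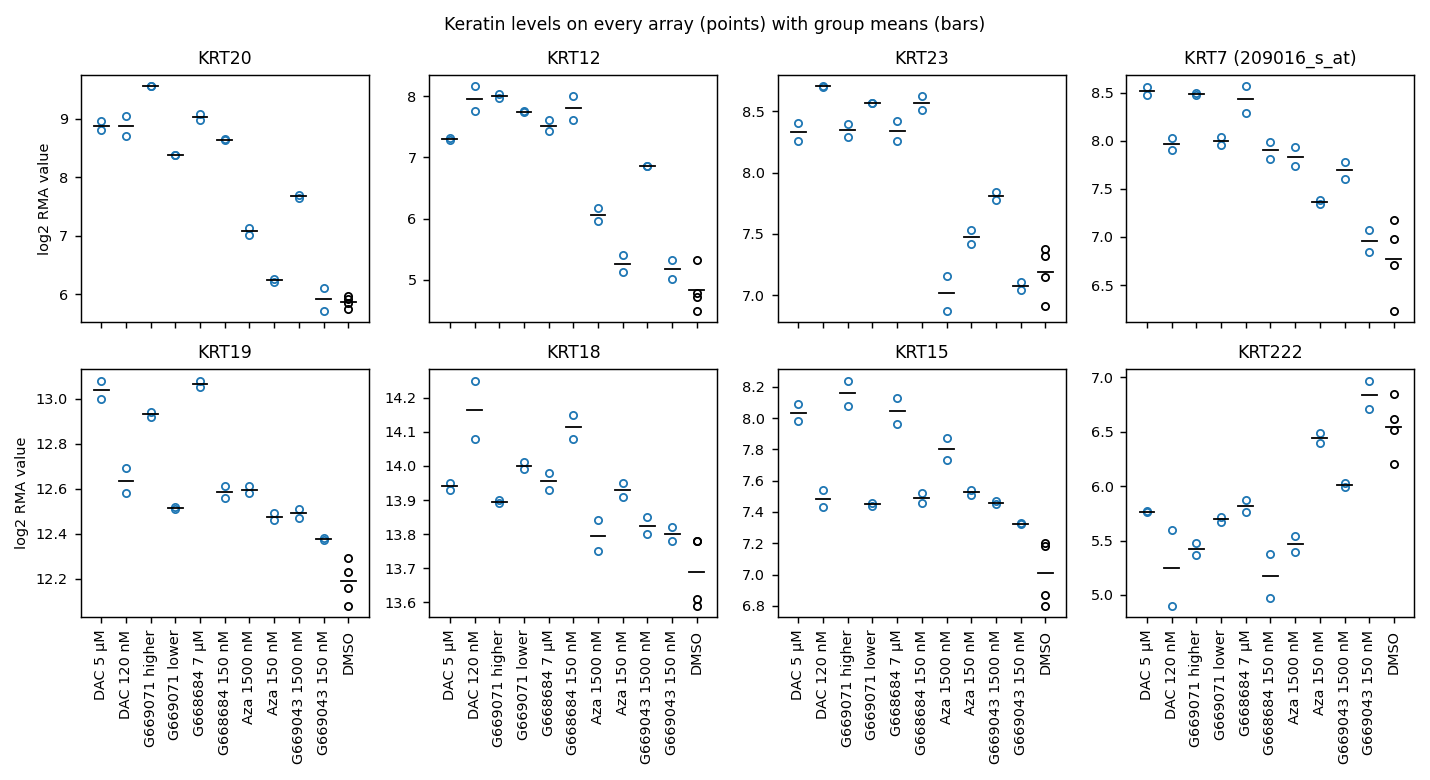
Log2 RMA value on every array (points) and group means (bars) for 8 keratin probe sets, treated groups left and DMSO right; each panel has its own scale. KRT20 and KRT12 lie above DMSO on all arrays of the DAC, G669071 and G668684 groups, KRT23 at Aza 1500 nM lies in or below the DMSO range, and KRT222 runs below DMSO in 8 groups.

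Set in RefSeq gene order, the risers were spread unevenly in most treated groups. KRT12, KRT20 and KRT23 are 3 consecutive genes of the type I cluster, and KRT10-AS1 precedes them. Of the 22 tested keratin symbols of that cluster (KRT10-AS1 among them), 12 rose and 1 fell at DAC 5 µM (18% and 14.2% of all genes), 10 and 1 at DAC 120 nM (12.5% and 9.9%), 13 and 1 at G669071 higher (15.8% and 13.7%), 13 and 1 at G668684 150 nM (10.7% and 10.4%), and 9 and 1 at Aza 1500 nM (8.13% and 9.18%). Of the 21 of the type II cluster, which also holds the type I gene KRT18, 2 rose and 0 fell at DAC 5 µM, DAC 120 nM, G669071 higher and Aza 1500 nM, and 3 rose and 0 fell at G668684 150 nM, beside the same shares of all genes. In the type I and type II clusters 10 and 2 rose at G669071 lower (8.68% of all genes) and 12 and 3 at G668684 7 µM (17.5%). At G669043 1500 nM 5 and 2 rose (5.88%). The counts of risers were equal at Aza 150 nM, 2 and 2 (1.03%), and at G669043 150 nM, 0 and 0 (0.709%). The median log2 fold changes at DAC 5 µM were 0.36 in the type I cluster and 0.01 in the type II cluster, and at Aza 1500 nM 0.22 and 0.12. The gene order was examined after the values had been seen and the difference between clusters was not tested.

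A second run of risers lay at the other end of the type I cluster, where KRT13, KRT15, KRT19 and KRT9 follow one another. Between the runs lie hair keratins and the keratin-associated proteins, hair matrix genes outside the family. Of 19 tested keratin-associated genes, 5 rose and 1 fell at DAC 5 µM, beside 18% and 14.2% of all genes, with KRTAP3-1 at 2.70 and KRTAP4-1 at 1.39 (log2 fold change). Of 10 genes flanking the cluster, 2 rose and 3 fell.

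**Figure D3:**
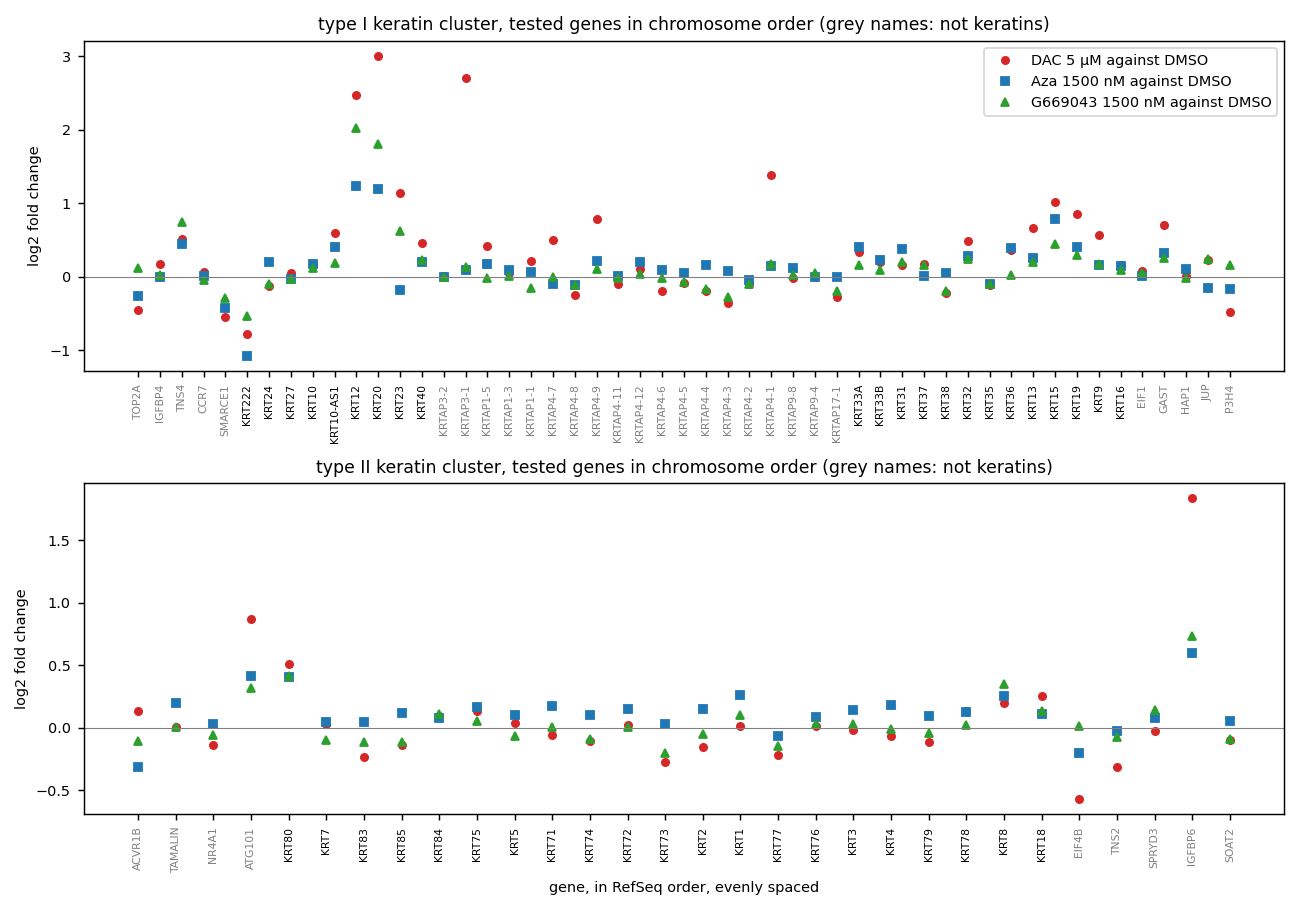
Log2 fold change against DMSO at DAC 5 µM, Aza 1500 nM and G669043 1500 nM for tested genes of the type I (upper) and type II (lower) keratin clusters in RefSeq order, evenly spaced, with names of genes that are no keratins in grey. KRT12, KRT20 and KRT23 stand together at 2.47, 3.01 and 1.14 for DAC 5 µM, while type II keratins lie near 0 except KRT80 at 0.51.

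In the 8 groups where KRT20 was called, the simple keratins rose by less than KRT20, and not all of them moved. At Aza 150 nM the called rise of KRT8 (0.445) was larger than the uncalled KRT20 difference of 0.365. Of KRT7, KRT8, KRT18 and KRT19, 2 rose at DAC 5 µM (18% of all genes), 3 at DAC 120 nM (12.5%), 2 at G669071 higher (15.8%) and 3 at G669071 lower (8.68%). G668684 raised 3 at 7 µM (17.5%) and 3 at 150 nM (10.7%), Aza 2 at 1500 nM (8.13%) and 3 at 150 nM (1.03%), and G669043 2 at 1500 nM (5.88%) and 0 at 150 nM (0.709%), with no fall in any group. A list of 4 genes is too short to set its share against these. The class median was highest, 0.46, at DAC 120 nM, and 0.22 at DAC 5 µM, beside medians of all genes of 0.00 and -0.04.

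KRT19, the smallest keratin and one of the brightest probe sets of the family, rose in 9 groups. Its log2 values were 13.00 and 13.08 at DAC 5 µM, 12.69 and 12.58 at DAC 120 nM, 12.94 and 12.92 at G669071 higher, and 12.51 and 12.52 at G669071 lower. They were 13.08 and 13.05 at G668684 7 µM, 12.61 and 12.56 at G668684 150 nM, 12.61 and 12.58 at Aza 1500 nM, 12.49 and 12.46 at Aza 150 nM, 12.51 and 12.47 at G669043 1500 nM and 12.38 and 12.37 at G669043 150 nM. The DMSO arrays read 12.23, 12.29, 12.16 and 12.08, below every treated array.

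The higher doses of DAC, G669071 and G668684 stood apart from the rest for KRT19. The log2 fold changes there were 0.85, 0.74 and 0.88, each ± 0.05 (adjusted p at most 7.6e-10). In the other 6 called groups they ran from 0.29 at Aza 150 nM to 0.45 at DAC 120 nM, and at G669043 150 nM the difference was 0.19 (adjusted p = 0.084). The call at Aza 150 nM was lost without either of its arrays (0.27 and 0.30). A separate, dimmer KRT19 probe set moved less and was called at G668684 7 µM alone, with 0.38 ± 0.11 (adjusted p = 0.012).

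KRT18 and KRT8, the obligate pair of simple epithelia, rose by small amounts. The only probe set of each can, by its suffix, bind several transcripts. KRT18 read 13.93 and 13.95 at DAC 5 µM, 14.25 and 14.08 at DAC 120 nM, and 13.78, 13.78, 13.61 and 13.59 in DMSO. KRT8 read 12.26 and 12.27 at DAC 5 µM, 12.65 and 12.47 at DAC 120 nM, and 12.14, 12.26, 11.99 and 11.89 in DMSO. DMSO replicates 3 and 4 were the lower arrays for both genes, and KRT8 at DAC 5 µM touched DMSO replicate 2.

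KRT18 was called in 7 groups, with log2 fold changes from 0.20 at G669071 higher to 0.47 at DAC 120 nM. KRT8 was called in 7 groups, with fold changes from 0.25 at Aza 1500 nM, where its arrays (12.40 and 12.24) overlapped DMSO, to 0.49 at DAC 120 nM. KRT8 at DAC 5 µM was 0.20 ± 0.08 higher (adjusted p = 0.070) and was not called, though against DMSO replicates 3 and 4 alone it passed with 0.33. Against DMSO replicates 1 and 2 alone, KRT8 at Aza 1500 nM (0.12), KRT18 at Aza 150 nM (0.15) and KRT18 at G669071 higher (0.12) lost their calls. Leaving out 1 array ended the call of KRT18 at Aza 150 nM (DMSO replicate 3 or 4 at 0.21, either Aza array at 0.22 and 0.26), of KRT18 at G669071 higher (its replicate 2, at 0.20), of KRT8 at G668684 7 µM (its replicate 2, at 0.24), of KRT8 at Aza 150 nM (either array, 0.45 and 0.44) and G669043 1500 nM (either array, 0.34 and 0.36), and of KRT8 at Aza 1500 nM (DMSO replicate 3, 0.22, DMSO replicate 4, 0.19, Aza replicate 1, 0.17, or Aza replicate 2, 0.33).

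KRT7, a keratin of ducts and glands that is low in most colon epithelium, depended on the probe set. The brightest of its probe sets represented the gene and ran from -0.10 to 0.06 (log2 difference from DMSO) with no call. Another, which by its suffix can bind several transcripts, read 8.56 and 8.47 at DAC 5 µM, 8.03 and 7.90 at DAC 120 nM, 8.50 and 8.47 at G669071 higher, and 7.96 and 8.04 at G669071 lower, against 7.18, 6.98, 6.71 and 6.23 in DMSO. Tested among all 35146 kept probe sets, it was higher by 1.74, 1.19, 1.71 and 1.23, each ± 0.17, and by 1.66 and 1.12 at G668684 7 µM and 150 nM (adjusted p at most 5.5e-05).

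The same KRT7 probe set was also higher by 1.06 at Aza 1500 nM (adjusted p = 0.00017) and by 0.91 at G669043 1500 nM (adjusted p = 0.0015), and differed by 0.59 and 0.18, without a call, at Aza 150 nM and G669043 150 nM. The remaining one, which carries the same kind of suffix, ran from -0.19 to 0.25 with no call. Taking the mean of the kept probe sets instead, KRT7 was called higher in 7 groups, by 0.42 to 0.64. The probe sets therefore disagree on whether KRT7 changed, and testing each on its own was chosen after this was seen.

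**Figure D4:**
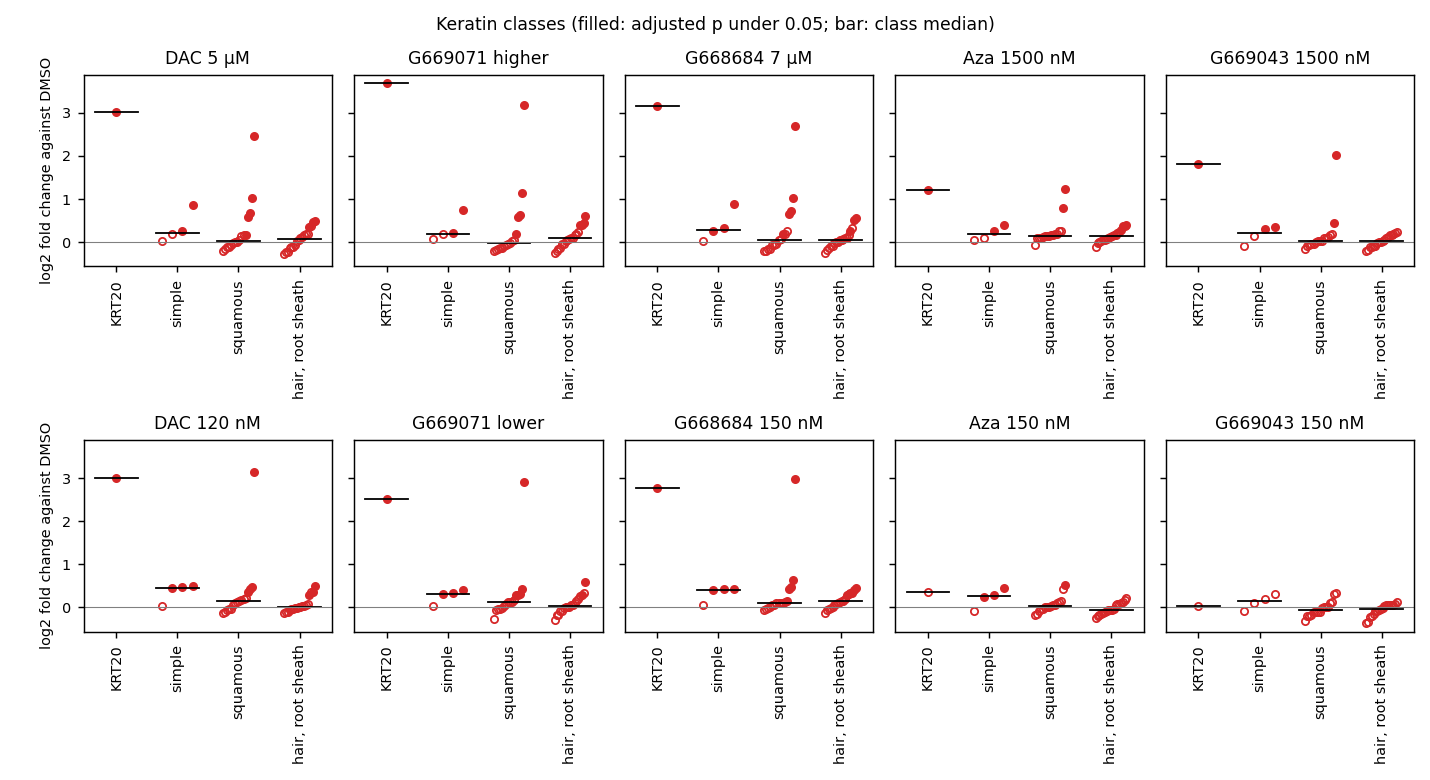
Log2 fold change against DMSO of each keratin in 4 classes (points; filled where the adjusted p is under 0.05) with the class median (bar), higher dose of each compound above and lower dose below. KRT20 stands above every class median wherever it was called, and the squamous and hair medians lie near 0 with single points above.

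Among the squamous keratins, a few rose and most did not pass the test. Of the 16 tested, KRT12 among them, 5 rose at DAC 5 µM (18% of all genes), 4 at DAC 120 nM (12.5%), 5 at G669071 higher (15.8%) and 4 at G669071 lower (8.68%). G668684 raised 5 at 7 µM (17.5%) and 5 at 150 nM (10.7%), Aza 3 at 1500 nM (8.13%) and 1 at 150 nM (1.03%), and G669043 2 at 1500 nM (5.88%) and 0 at 150 nM (0.709%), with no fall in any group. The class median stayed between -0.06 and 0.15. Beside KRT12 the recurrent members were KRT15, KRT9 and KRT13.

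KRT15, a keratin of basal keratinocytes and the hair follicle bulge, was called in 9 groups. It read 7.98 and 8.09 at DAC 5 µM, 8.08 and 8.24 at G669071 higher, 7.96 and 8.13 at G668684 7 µM and 7.87 and 7.73 at Aza 1500 nM, against 7.20, 6.87, 7.18 and 6.80 in DMSO. It read 7.43 and 7.54 at DAC 120 nM, 7.46 and 7.44 at G669071 lower, 7.46 and 7.52 at G668684 150 nM, 7.51 and 7.54 at Aza 150 nM, 7.45 and 7.47 at G669043 1500 nM and 7.32 and 7.33 at G669043 150 nM. Every treated array was above every DMSO array.

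The KRT15 log2 fold changes were 1.02, 1.15 and 1.03 at DAC 5 µM, G669071 higher and G668684 7 µM, each ± 0.10 (adjusted p at most 1.0e-07), and 0.79 at Aza 1500 nM (adjusted p = 1.6e-05). In the other 5 called groups they ran from 0.44 at G669071 lower to 0.51 at Aza 150 nM. Without either array, the calls at Aza 150 nM (0.53 and 0.50) and G669043 1500 nM (0.46 and 0.44) were lost, and without replicate 1 that at G669071 lower (0.43). The difference at G669043 150 nM, 0.31 (adjusted p = 0.13), was called without DMSO replicate 3 at 0.37.

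KRT9, a keratin of the upper layers of palm and sole skin, was called in the 6 groups of DAC, G669071 and G668684. It read 7.95 and 7.83 at DAC 5 µM, 7.85 and 7.95 at G669071 higher and 8.04 and 8.03 at G668684 7 µM, against 7.41, 7.31, 7.34 and 7.20 in DMSO. The log2 fold changes were 0.58, 0.59 and 0.72 there, each ± 0.08, and 0.29 to 0.43 at the smaller doses, with no overlap with DMSO. Without replicate 1, the call at G669071 lower was lost (0.20).

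KRT13, a keratin of the oral and oesophageal lining, was dim and less steady. It read 5.80 and 6.04 at DAC 5 µM, 6.09 and 5.68 at G669071 higher and 5.87 and 5.93 at G668684 7 µM, against 5.00, 5.52, 5.28 and 5.20 in DMSO. The log2 fold changes were 0.67, 0.64 and 0.65 there, each ± 0.13, and KRT13 was also called at G668684 150 nM (0.63). At DAC 120 nM (0.36, adjusted p = 0.042) the call was lost without DMSO replicate 1 (0.28), replicate 3 (0.37) or replicate 4 (0.35), or without either treated array (0.42 and 0.31). Without DMSO replicate 2 KRT13 was called at Aza 1500 nM (0.35) and G669071 lower (0.38) too.

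The main keratins of the epidermis were not called or rose by small amounts, and KRT14 was not tested. KRT5, the basal partner of KRT14, and KRT1, the suprabasal partner of KRT10, were not called in any group. KRT10 rose by 0.16 to 0.20 in 5 groups, and KRT16, a keratin of wounded and proliferating epidermis, by 0.32 at G669071 lower alone. The summed level of 26 genes of keratinocyte cornification ranged from 11.66 to 12.12 (log2) over treated arrays and from 11.67 to 11.69 over DMSO arrays. Every treated group except DAC 120 nM lay wholly above DMSO, with the highest sums, 12.11 and 12.12, at Aza 1500 nM. Bright genes weigh most in such a sum, and its part in the keratin values was not tested.

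The hair and inner root sheath keratins changed by small amounts or were not called. Of 18 tested, 3 rose at DAC 5 µM (18% of all genes), 3 at DAC 120 nM (12.5%), 4 at G669071 higher (15.8%) and 2 at G669071 lower (8.68%). G668684 raised 3 at 7 µM (17.5%) and 5 at 150 nM (10.7%), Aza 3 at 1500 nM (8.13%) and 0 at 150 nM (1.03%), and G669043 0 at either dose (5.88% and 0.709%). At DAC 5 µM, DAC 120 nM, G669071 lower and G668684 7 µM the class stood near the share of all genes. Its counts there are no result about hair keratins, and the other counts were not tested against these shares. No tested member of the class exceeded 0.61, and the class median stayed between -0.05 and 0.15. A probe set assigned to both LOC100653049 and the hair keratin gene KRT34 lay outside the class. It was higher than in DMSO by 1.49 at DAC 5 µM and by 0.85 at Aza 1500 nM. Which of these loci it reads was not tested.

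KRT33A, a hair cortex keratin, read 5.77 and 5.69 at DAC 5 µM and 5.86 and 5.93 at G668684 7 µM, against 5.45, 5.43, 5.30 and 5.37 in DMSO. It was called in 7 groups, by 0.28 to 0.51. Leaving out 1 array ended 4 of these calls: DAC 5 µM without replicate 1 (0.30), DAC 120 nM without replicate 1 (0.24), G668684 150 nM without replicate 1 (0.23), and G669071 lower without DMSO replicate 3 (0.25), DMSO replicate 4 (0.27) or either own array (0.32 and 0.23).

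KRT40, a type I hair keratin, was called in 4 groups, by 0.46 to 0.61, with 5.83 and 6.32 at G669071 higher against 5.61, 5.35, 5.37 and 5.54 in DMSO. Each of its calls was lost without 1 array: DAC 5 µM without replicate 1 (0.42) or 2 (0.49), G669071 higher without replicate 2 (0.36), G669071 lower without replicate 1 (0.54) and G668684 150 nM without replicate 1 (0.35). Without DMSO replicate 1 (0.39) or its own replicate 2 (0.50) DAC 120 nM was called as well. KRT36, another type I hair keratin, was called in 3 groups, by 0.44 to 0.55, with 6.95 and 6.72 at G668684 7 µM against 6.52, 6.22, 6.14 and 6.26 in DMSO.

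The KRT36 calls too depended on single arrays. They were lost at DAC 120 nM without replicate 1 (0.39), at G668684 7 µM without replicate 1 (0.43) and at G669071 higher without replicate 2 (0.27) or DMSO replicate 3 (0.39). Without DMSO replicate 1, KRT36 was called at DAC 5 µM (0.45), G669071 lower (0.42) and G668684 150 nM (0.47), and at Aza 1500 nM (0.46; also without Aza replicate 1, at 0.64). The 27 keratins not named by rule, among them KRT10, KRT16, KRT31, KRT32 and KRT71, ran from -0.36 to 0.49, and 15 of their 270 values passed the test, all as rises. In the treated groups, 0.709% to 18% of all genes rose and 0.161% to 14.7% fell. The naming rule took out every keratin called at 0.5 or more, which limits this range and this count.

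KRT80, a type II keratin found in many epithelia, rose in 5 groups. It read 6.54 and 6.36 at DAC 5 µM, 6.41 and 6.57 at G668684 7 µM, 6.50 and 6.19 at Aza 1500 nM and 6.22 and 6.48 at G669043 1500 nM, against 6.10, 5.91, 5.69 and 6.05 in DMSO. These treated arrays were all above DMSO. The log2 fold changes were 0.51, 0.55, 0.41 and 0.41, each ± 0.11, and 0.35 at G669071 higher. The last call was lost without DMSO replicate 3 (0.27) or either of its own arrays (0.42 and 0.28), that at Aza 1500 nM without replicate 1 (0.25), and that at G669043 1500 nM without replicate 2 (0.28) or DMSO replicate 3 (0.33). Without DMSO replicate 1, DAC 120 nM (0.33) and G668684 150 nM (0.37; also without DMSO replicate 4, at 0.35) were called.

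KRT10-AS1, the RNA read from the strand opposite KRT10, was called in 6 groups, and between doses for DAC, G668684 and Aza but not for G669071 (0.14, adjusted p = 0.29) or G669043 (0.03, adjusted p = 0.89). It read 10.34 and 10.32 at DAC 5 µM, 10.37 and 10.18 at G668684 7 µM, 10.15 and 10.14 at Aza 1500 nM and 10.09 and 10.09 at G669071 higher, against 9.72, 9.85, 9.73 and 9.65 in DMSO. All were above DMSO, by 0.59, 0.54, 0.41 and 0.35 (log2 fold change), each ± 0.06. It was also called, at 0.21, at G669071 lower and G668684 150 nM, where the call was lost without either own array (0.21 and 0.21, 0.23 and 0.19) and, for G669071, without DMSO replicate 4 (0.18). At DAC 120 nM (0.17) and G669043 1500 nM (0.19) it was called without DMSO replicate 2 (0.20 and 0.23). Whether its probe set reads only that strand was not tested.

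KRT222, a keratin-like gene at the start of the type I cluster, was the one that fell. It read 5.76 and 5.77 at DAC 5 µM, 4.90 and 5.60 at DAC 120 nM, 5.37 and 5.48 at G669071 higher, and 5.67 and 5.72 at G669071 lower. It read 5.76 and 5.87 at G668684 7 µM, 4.97 and 5.38 at G668684 150 nM and 5.54 and 5.39 at Aza 1500 nM. The DMSO arrays read 6.20, 6.52, 6.85 and 6.62, above all of these.

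The log2 changes of KRT222 were -0.78, -1.30, -1.12, -0.85, -0.73, -1.37 and -1.08 in that order, each ± 0.17 (adjusted p at most 0.00165). At G669043 1500 nM (5.99 and 6.03) it fell by 0.54 ± 0.17 (adjusted p = 0.048), a call lost under 12 alternatives. At Aza 150 nM (6.40 and 6.49) and G669043 150 nM (6.97 and 6.71) the differences of -0.10 and 0.29 did not pass. Another, dimmer KRT222 probe set, which reached the filter value of 5 on 6 arrays, 3 of them DMSO, differed by between -0.61 and -1.08 in these 8 groups, and its distance from background is not known.

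The higher and lower dose of each compound were set against each other directly, to ask which keratins followed dose. DAC at 5 µM against 120 nM raised 4 keratins and lowered 3, beside 8.73% and 5.94% of all genes. KRT15 (0.55 ± 0.12), KRT10-AS1 (0.42 ± 0.07), KRT19 (0.41 ± 0.06) and KRT10 (0.21 ± 0.06) were higher at 5 µM. KRT12 (-0.66 ± 0.20), KRT8 (-0.30 ± 0.09) and KRT18 (-0.22 ± 0.06) were lower at 5 µM, but each of these 3 was lost without any of several single arrays: KRT12 without DAC 5 µM replicate 1 (-0.67) or 2 (-0.65) or DAC 120 nM replicate 2 (-0.45), KRT8 without DAC 5 µM replicate 1 (-0.29) or 2 (-0.30) or DAC 120 nM replicate 1 (-0.20), and KRT18 without DAC 5 µM replicate 1 (-0.21) or 2 (-0.23) or DAC 120 nM replicate 1 (-0.14). KRT20 was not called between the doses, with a difference of 0.00 ± 0.12 and a 95% interval of -0.24 to 0.25. The KRT23 difference, -0.37 ± 0.12, did not pass (adjusted p = 0.052), though it did with a replicate block (adjusted p = 0.012).

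KRT20 was called between the doses of each other compound. With G669071, its values of 9.55 and 9.56 at the higher and 8.38 and 8.38 at the lower dose differed by 1.18 ± 0.12 (adjusted p = 1.9e-06). With G669043, the values of 7.70 and 7.65 at 1500 nM and 5.71 and 6.11 at 150 nM differed by 1.76 ± 0.12 (adjusted p = 5.4e-09). With Aza the difference was 0.83 ± 0.12 (adjusted p = 0.00018). With G668684 it was 0.38 ± 0.12 (adjusted p = 0.039), a call lost without any 1 of its 4 arrays (0.33 to 0.43).

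The remaining dose differences fell on few genes. G669071 raised 4 keratins and lowered 1 at its higher dose, beside 5.65% and 3.71% of all genes: after KRT20 these were KRT15 (0.71), KRT19 (0.41), KRT9 (0.29) and, lower, KRT16 (-0.46). The KRT9 call was lost without either higher-dose array (0.34 and 0.24) or lower-dose replicate 2 (0.20), and that of KRT19 when the mean of its probe sets was taken (0.24). G668684 raised 6 and lowered 1 at 7 µM, beside 7.78% and 3.77%: KRT222 (0.64), KRT15 (0.55), KRT19 (0.48), KRT20, KRT10-AS1 (0.32) and KRT9 (0.30) were higher and KRT71 (-0.33) lower.

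Several of the G668684 dose calls rested on single arrays. That of KRT222 was lost without 7 µM replicate 1 (0.70) or 2 (0.58) or 150 nM replicate 1 (0.44). That of KRT10-AS1 was lost without 7 µM replicate 1 (0.23) or 150 nM replicate 1 (0.30). That of KRT9 was lost without any 1 of the 4 arrays (0.23 to 0.36). The calls of KRT15 and KRT19 were kept under the alternatives run.

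Aza at 1500 nM against 150 nM raised 3 keratins and lowered 2, beside 2.41% and 3.38% of all genes. KRT20 (0.83), KRT12 (0.80 ± 0.20) and KRT10-AS1 (0.34 ± 0.07) were higher, and KRT222 (-0.98 ± 0.19) and KRT23 (-0.46 ± 0.12) lower. The KRT12 call was lost without any 1 of the 4 arrays (0.67 to 0.94). Leaving out Aza 1500 nM replicate 2 ended those of KRT10-AS1 (0.35), KRT222 (-0.90) and KRT23 (-0.32), as did Aza 150 nM replicate 1 for KRT10-AS1 (0.32) and KRT23 (-0.52) and replicate 2 for KRT222 (-0.94) and KRT23 (-0.41). G669043 at 1500 nM against 150 nM raised 4 and lowered 1, beside 1.69% and 2.18%: KRT20 (1.76), KRT12 (1.69 ± 0.20), KRT23 (0.73 ± 0.12) and KRT32 (0.39) were higher and KRT222 (-0.83 ± 0.19) lower, the last lost without any 1 of the 4 arrays (-0.96 to -0.70).

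G669043 and Aza share both of their doses in the labels and were compared at each; G668684 also had a 150 nM group, which was not tested against them. At 1500 nM, 3 keratins were higher with G669043 than with Aza and 0 lower, beside 1.47% and 0.659% of all genes, and they were the 3 neighbours KRT12, KRT20 and KRT23. KRT23 read 7.78 and 7.84 with G669043 and 7.16 and 6.87 with Aza, a log2 difference of 0.80 ± 0.12 (95% interval 0.53 to 1.06, adjusted p = 0.0016). KRT20 read 7.70 and 7.65 with G669043 and 7.13 and 7.01 with Aza, a difference of 0.60 ± 0.12 (0.36 to 0.85, adjusted p = 0.0097). KRT12 read 6.86 and 6.86 with G669043 and 6.17 and 5.96 with Aza, a difference of 0.80 ± 0.20 (0.38 to 1.21, adjusted p = 0.040).

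For all 3 genes both G669043 arrays were above both Aza arrays. Without Aza 1500 nM replicate 2 none of the 3 was called: the differences were 0.65 for KRT23 (adjusted p = 0.070), 0.55 for KRT20 (adjusted p = 0.15) and 0.69 for KRT12 (adjusted p = 0.37). The KRT20 call was also lost without either G669043 array (0.58 and 0.63), and that of KRT12 without any 1 of the 4 arrays (0.69 to 0.90).

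No other keratin was called between the compounds at 1500 nM. The 95% interval of the log2 difference was -0.23 to 0.02 for KRT19, -0.10 to 0.16 for KRT18, -0.09 to 0.29 for KRT8, -0.58 to -0.10 for KRT15 (adjusted p = 0.15) and 0.14 to 0.95 for KRT222 (adjusted p = 0.16). At 150 nM, 0 keratins were called, beside 0.0111% of all genes higher and 0.0554% lower. By the unadjusted p under 0.05 in limma 1 was higher and 4 lower, with no share of all genes counted at that threshold. The means ran the other way there, with differences of -0.32 ± 0.12 for KRT20 (-0.57 to -0.08, adjusted p = 0.42) and -0.40 ± 0.12 for KRT23 (-0.66 to -0.14, adjusted p = 0.37).

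**Figure D5:**
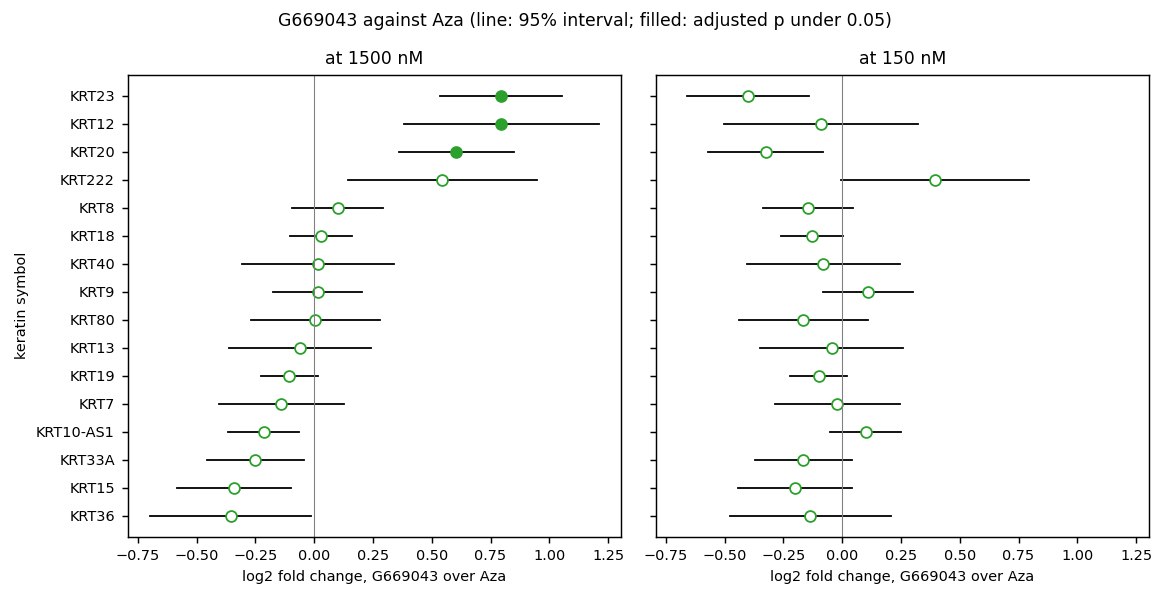
Log2 fold change of G669043 over Aza at 1500 nM (left) and 150 nM (right) for 16 keratin symbols, with 95% intervals; filled points have an adjusted p under 0.05. At 1500 nM KRT23, KRT12 and KRT20 are the filled points, at 0.80, 0.80 and 0.60, and at 150 nM no point is filled.

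Genes that work with keratins were followed as lists, whose counts stand beside 18% of all genes higher and 14.2% lower at DAC 5 µM, 12.5% and 9.9% at DAC 120 nM, and 8.13% and 9.18% at Aza 1500 nM. Few markers of colon differentiation passed the test: of 19 tested, 1 rose and 1 fell at DAC 5 µM, LGALS4, an enterocyte galectin, by 0.58 ± 0.13 and CA2, a carbonic anhydrase of absorptive cells, by -0.28 ± 0.07. At DAC 120 nM 2 rose and 1 fell, with the intestinal transcription factor CDX2 at 0.35 ± 0.10 and the goblet cell peptide TFF3 at 0.28 ± 0.09, beside CA2 at -0.52 ± 0.07. At Aza 1500 nM 1 rose, CDX2 by 0.30 ± 0.10, and 1 fell, CA2 by -0.22 ± 0.07. Over the 10 treated groups, 0 to 2 rose and 0 to 1 fell.

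Desmosomes anchor keratin filaments at cell contacts, and their genes moved in both directions. Of 17 tested desmosome and plakin genes, 5 rose and 5 fell at DAC 5 µM, 4 and 1 at DAC 120 nM, and 2 and 5 at Aza 1500 nM. The desmosomal cadherins went opposite ways at DAC 5 µM, DSC3 by 0.91 ± 0.11 and DSC2 by -0.65 ± 0.09. The plakins EPPK1 (0.62 ± 0.11) and DST (-0.60 ± 0.22) did so too. At Aza 1500 nM DST fell by 1.23 and the periplakin gene PPL by 0.74, and DSP, which ties keratin to the desmosome, rose by 0.59 at DAC 120 nM. Over the 10 treated groups, 0 to 5 rose and 0 to 5 fell.

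Genes of the cornified envelope, the shell of dead keratinocytes, rose in part. Of 22 tested, 7 rose and 1 fell at DAC 5 µM, 2 and 1 at DAC 120 nM, and 4 and 0 at Aza 1500 nM, with 1 to 7 rising and 0 to 1 falling over all 10 treated groups. TCHH, trichohyalin, rose by 1.16 ± 0.16 and the skin protease KLK5 by 1.05 ± 0.10 at DAC 5 µM, and CSTA, an envelope protease inhibitor, by 1.57 ± 0.11 at Aza 1500 nM.

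Other intermediate filament genes were called in part as well. Of 17 tested, 4 rose and 2 fell at DAC 5 µM and 6 rose and 1 fell at DAC 120 nM, with 0 to 6 rising and 0 to 3 falling over all 10 groups. VIM, the filament of mesenchymal cells, rose by 3.21 ± 0.07 and 3.84 ± 0.07 at these doses, and the neurofilament gene NEFH by 0.85 ± 0.19 and 1.28 ± 0.19, while the nuclear lamin gene LMNB1 changed by -1.23 ± 0.14 and -0.58 ± 0.14. Of 18 tested regulators of epithelial identity, 7 rose and 4 fell at DAC 5 µM, 4 and 4 at DAC 120 nM and 0 and 5 at Aza 1500 nM, with 0 to 7 rising and 0 to 5 falling over all 10 groups. GRHL2, a factor that maintains epithelium, fell by 1.03 ± 0.13 and ESRP1, an epithelial splicing factor, by 0.97 ± 0.09 at DAC 5 µM, where SNAI2, a repressor of epithelial genes, rose by 1.00 ± 0.12 and KLF4, a factor of gut and skin differentiation, by 0.73 ± 0.12. SNAI2 read 4.46 to 4.73 on the DMSO arrays, below the filter value of 5, and was tested only because treated arrays reached it. It is among the 7 risers at DAC 5 µM and had to differ from DMSO to be kept. The size of its rise is therefore not settled. The medians of these 5 lists at DAC 5 µM ran from -0.05 to 0.17, beside -0.04 for all genes.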

How the data were processed

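Per the submitters' processing notes, the authors used Expression Console 1.1 from Affymetrix to make RMA values. These were deposited as linear intensity, 1 value per probe set, and log2 of the deposited values was taken here. Symbols are those of the platform's probe table, and sequences and gene order from RefSeq (GRCh38.p14). The sources used here give no genome build for the arrays. No column of values was left unused, and 0 pairs of arrays were identical.

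Probe sets with 1 symbol that reached log2 5 on at least 2 arrays were kept (35146), and the probe set of highest mean stood for each of 18055 genes. The 11 group means were estimated together from the 24 arrays in limma 3.58.1 under R 4.3.3 (lmFit, eBayes with an intensity trend, 13 residual and 6.14 prior degrees of freedom), 2-sided, in 17 contrasts. Errors of fold changes are limma SEs and errors of levels are SDs. The number of arrays limits the precision.

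Keratins named were KRT7, KRT8, KRT18, KRT19, KRT20 and KRT23, and every other one called against DMSO with an absolute log2 fold change of 0.5 or more; of the other lists, up to 4 called members per contrast with the largest change. KRT5, KRT1, KRT10, KRT16, KRT31, KRT32, KRT71 and the keratin-associated genes were named after their values were seen. The members and lists were chosen with earlier results of these data known. The model was tested on simulated data. Alternatives were the filter, the choice of probe set, normalization, subsets of the DMSO arrays, a replicate block and leaving out each replicate. Tables and figures used Python 3.11.15, pandas 2.3.3 and matplotlib 3.10.9.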

Additional observations from a re-analysis of the deposited data

Results flagged for a closer look

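Among the 43 tested keratin symbols in the DMSO group, 1 had an array far from the others: KRT35, a hair keratin, was lowest in replicate 3, at 5.2 (log2 value), and about 1 group in 20 is marked by chance.

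G669043 and Aza at 1500 nM differed in their effect on 3 keratins by a direct test: the log2 difference was 0.80 for KRT12, 0.60 for KRT20 and 0.80 for KRT23. As given above, each of these calls was lost when a single Aza array was left out.

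A probe set outside the members, which the probe table assigns to both LOC100653049 and the hair keratin gene KRT34, was higher than in DMSO by 1.49 at DAC 5 µM, 0.89 at DAC 120 nM, 1.59 at G669071 higher, 1.64 at G668684 7 µM, 0.77 at G668684 150 nM and 0.85 at Aza 1500 nM (log2 fold changes, all past the adjusted p threshold of limma). Which of the 2 loci it reads was not tested.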

How the results depend on the processing

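Of 272 results for the 16 named keratin symbols, 187 kept their side of the threshold under every alternative run. Direction was required of called results only, so uncalled differences could change sign. In all, 0 values were called in opposite directions. Leaving out 1 array gave 1408 values, of which 107 lost and 22 gained a call; the other alternatives gave 2122, of which 64 lost and 57 gained one. The number of keratin symbols called, with 1 array left out, ranged from 12 to 17 at DAC 5 µM (15 with all arrays), 9 to 15 at DAC 120 nM (13), 12 to 18 at G669071 higher (16), 8 to 14 at G669071 lower (13), 13 to 16 at G668684 7 µM (16), 10 to 19 at G668684 150 nM (17), 8 to 14 at Aza 1500 nM (12), 0 to 4 at Aza 150 nM (4), 4 to 8 at G669043 1500 nM (8) and 0 to 4 at G669043 150 nM (0). Where 1 array of a treated group was left, it was assumed to vary like the other groups. Between doses the number ranged from 3 to 7 for DAC (7), 3 to 5 for G669071 (5), 2 to 5 for G668684 (7), 1 to 5 for Aza (5) and 3 to 3 for G669043 (5), and between G669043 and Aza from 0 to 2 at 1500 nM (3) and 0 to 0 at 150 nM (0). Leaving out probe sets whose suffix marks binding to several transcripts, which tests fewer keratins, 9, 8, 10, 8, 10, 10, 2 and 5 symbols were called at DAC 5 µM, DAC 120 nM, G669071 higher and lower, G668684 7 µM and 150 nM, Aza 150 nM and G669043 1500 nM, and 4 between the DAC doses. KRT8, KRT13, KRT18, KRT23, KRT33A and KRT40 have no other kept probe set and dropped out there. Against DMSO replicates 1 and 2 alone, 7 were called at Aza 1500 nM and 8 at G669043 150 nM; against replicates 3 and 4 alone, 22 and 2. Calls over all 18055 genes moved too: 2708 and 5084 against replicates 1 and 2, 5504 and 111 against 3 and 4, and 3125 and 157 against all 4, so these shifts are not particular to keratins. The array medians (log2) of DMSO replicates 1 to 4 were 6.58, 6.56, 6.47 and 6.49. The actin control probe sets, 3' minus 5' end, differed by -0.03, 0.00, 0.24 and 0.15 (log2), and those of GAPDH by -0.14, -0.16, -0.15 and -0.17. The largest actin difference, 0.34, was at G669043 1500 nM replicate 2. Centring arrays on their medians called 2 at G669043 150 nM and 3 between the Aza doses, normalizing to the same quantiles again 3, and testing every probe set on its own (chosen after seeing the data) 4 between the G668684 doses. Apart from the construction named, the cause was not tested.

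Arrays of different groups share replicate numbers in their labels, which do not say whether they were handled together. The same-numbered samples' deviations correlated at -0.39 to 0.61 over 55 pairs of groups, with a median of 0.016 and 20 pairs over 0.1. These values do not settle whether arrays were paired, and the main fit did not model pairing. With the number as a block, in which DMSO replicates 3 and 4 have no partner, 17, 12, 16, 9, 19, 13, 8, 5, 8 and 8 keratin symbols were called against DMSO in the order above. Of all 18055 genes, the block called 7654, 4701, 6801, 2772, 7322, 4007, 2821, 658, 3121 and 5380 in the same order. At G669043 150 nM these 5380 stand against 157 without the block. The depth of an array cannot be read from RMA values, and without detection calls the dim keratins, KRT12 in DMSO among them, have no known distance from background.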
